A study of Mus musculus with 4 samples.

Results

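The Il33 and type 2 cytokine circuit was followed as 10 genes of the 31053 genes in the count tables, chosen by gene symbol: the alarmins Il33 and Tslp, their receptor chains Il1rl1 and Crlf2, the cytokines Il4, Il5 and Il13, the receptor chain Il4ra, the transcription factor Gata3 and the effector gene Retnla. Each symbol matched 1 gene. The study collected the stromal vascular fraction, the cells left once mature adipocytes are removed, from the fourth inguinal fat depot of C57BL/6 mice aged 8 weeks. In this depot the mammary ductal tree lies within the fat. Single cells were counted with a 3′ droplet kit that tags each captured transcript with a unique molecular identifier (UMI). The cold group was held at 4 °C for 24 h and gave 2 libraries, and the room-temperature group gave the other 2. The labels name no gene edit or drug in either group. They do not say how many mice went into a library or that the libraries came from separate mice, and p-values here reflect no more than how far these libraries vary, which may be technical.

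Il33 is a nuclear cytokine of stromal, endothelial and epithelial cells that is released on damage and binds ST2, the receptor encoded by Il1rl1, which pairs with the accessory chain Il1rap. Group 2 innate lymphoid cells, mast cells and a subset of regulatory T cells carry ST2, and the innate lymphoid cells answer Il33 with Il5 and Il13. Tslp is an alarmin that signals through Crlf2 paired with Il7r. Il4 and Il13 act through Il4ra and STAT6, which drives alternative activation of macrophages, of which Retnla is a marker gene. Gata3 is the transcription factor that group 2 innate lymphoid cells and type 2 helper T cells need, and it is also a lineage factor of mammary luminal cells. In adipose tissue this circuit is known for maintaining eosinophils and regulatory T cells and has been tied to beige fat.

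After filtering, 3929 and 2971 cells were kept in the cold libraries, against 5232 and 3065 in the room-temperature libraries, with median depths of 6770 to 7592 UMIs per cell. The libraries of any pair shared 1 to 8 cell barcodes. Of the 65 clusters, those that met the marker rule formed 17 named classes, and 1902 of 15197 cells stayed in clusters with mixed or no names. Classes were rebuilt from markers, since the files used here give no cell annotation. Macrophages and monocytes made up 14.7% and 11.8% of the cold cells and 28.5% and 28.2% of the room-temperature cells. By edgeR's quasi-likelihood test no share of cells among 19 groups of cells passed a Benjamini-Hochberg adjusted p of 0.05 (0% called, smallest adjusted p = 0.173), although 3 had an unadjusted p under that level. A list of 20 heat-shock and immediate early genes, which respond to tissue dissociation, was higher in cold in several classes, and Hspa1a rose in fibroblasts, macrophages, T cells, regulatory T cells and natural killer cells. Eosinophils and basophils, both known sources of Il4, formed no cluster of their own, as no cluster met the marker rule for either. Of eosinophil genes Epx had 1 UMI, Siglecf 38, Ccr3 49 and Prg2 58, and of basophil genes Mcpt8 had 3, Ms4a2 14, Fcer1a 36 and Cd200r3 112, some of which mast cells also carry. The other listed genes were more abundant. Alox15 of the eosinophil list had 667 UMIs in 485 cells. Of the basophil list Hdc had 614 in 216 cells and Gata2 605 in 334 cells.

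The circuit's members divided among the cell classes by role. Levels are given as CPM, a gene's share of the summed UMIs of a class in a library scaled to a fixed total. Il33 was highest in fibroblasts and adipose progenitors, with a mean over libraries of 89.6 CPM, and Tslp in macrophages and monocytes, with 63.9 CPM. Il1rl1 was highest in mast cells and group 2 innate lymphoid cells, Il5 came mostly from group 2 innate lymphoid cells, and Il13 from both. Gata3 was highest in group 2 innate lymphoid cells, at 969 CPM, followed by hormone-sensing luminal epithelium, at 747 CPM. Retnla was a macrophage gene, with 90.8% of its UMIs in that class. Total UMIs set the precision and ran from 62 for Il5, 107 for Il4 and 108 for Il13 to 51288 for Gata3 and 624815 for Retnla. Il33 had 3424, Il1rl1 1585, Tslp 2321, Crlf2 8918 and Il4ra 6449.

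**Figure D1:**
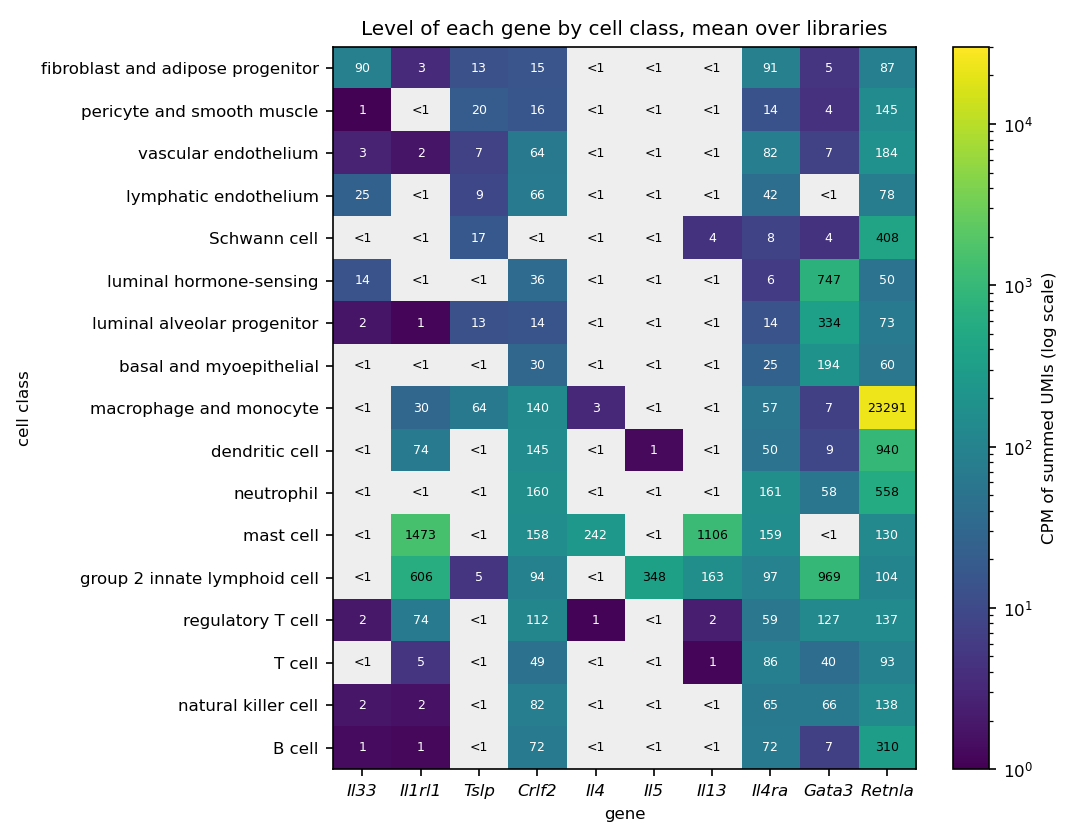
Level of each of the 10 genes (columns) in each of the 17 named cell classes (rows), as the mean CPM of summed UMIs over libraries on a log colour scale. Il33 peaks in fibroblasts, Tslp and Retnla in macrophages, and Il1rl1 in mast cells and group 2 innate lymphoid cells.

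The promoters of the members on which the receptor, cytokine and target results turn are shown for their sequence context, as the 250 bases before a RefSeq gene start (GRCm38.p6), read 5′ to 3′ on the strand of the gene. Promoters of 9 of the 10 genes matched the RefSeq table, 12 in all. Capitals mark 2 motifs searched on both strands: AGATAA, the core letters bound by GATA factors, and TTC and GAA set 4 bases apart, the spacing bound by STAT6. AGATAA stood in 3 of the 12 member promoters and in 9.99% of 32851 promoters of the table. The STAT6 spacing stood in 3 of the 12 and in 5.85% of the table. The motifs share no letters in these windows, and a match describes letters only.
Il33, chr19:29924863-29925112, plus strand: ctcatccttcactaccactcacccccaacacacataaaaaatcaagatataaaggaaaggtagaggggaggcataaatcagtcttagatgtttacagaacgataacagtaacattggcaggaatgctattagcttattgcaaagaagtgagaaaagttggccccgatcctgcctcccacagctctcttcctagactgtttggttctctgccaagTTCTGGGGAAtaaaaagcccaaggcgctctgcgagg
Il1rl1 distal start, chr1:40429320-40429569, plus strand: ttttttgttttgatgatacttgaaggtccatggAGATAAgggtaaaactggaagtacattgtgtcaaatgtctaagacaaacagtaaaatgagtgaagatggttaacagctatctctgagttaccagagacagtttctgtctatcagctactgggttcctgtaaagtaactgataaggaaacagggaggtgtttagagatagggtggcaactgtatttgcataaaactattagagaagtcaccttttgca
Il1rl1 proximal start, chr1:40439379-40439628, plus strand: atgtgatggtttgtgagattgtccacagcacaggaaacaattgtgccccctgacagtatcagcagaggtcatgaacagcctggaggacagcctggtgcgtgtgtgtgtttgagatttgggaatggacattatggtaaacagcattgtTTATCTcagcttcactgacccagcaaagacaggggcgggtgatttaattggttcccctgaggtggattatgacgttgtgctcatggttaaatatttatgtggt
Il13, chr11:53634703-53634952, minus strand: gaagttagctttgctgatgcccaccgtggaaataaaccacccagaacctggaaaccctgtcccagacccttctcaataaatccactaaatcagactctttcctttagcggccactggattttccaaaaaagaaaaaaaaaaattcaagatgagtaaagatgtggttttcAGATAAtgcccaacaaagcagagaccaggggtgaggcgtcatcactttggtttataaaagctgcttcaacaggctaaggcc
Retnla, chr16:48842359-48842608, plus strand: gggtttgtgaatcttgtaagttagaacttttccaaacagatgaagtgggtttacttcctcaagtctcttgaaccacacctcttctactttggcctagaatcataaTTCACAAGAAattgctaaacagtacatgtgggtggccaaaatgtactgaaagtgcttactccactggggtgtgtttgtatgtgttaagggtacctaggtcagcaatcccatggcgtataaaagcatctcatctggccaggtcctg
Il1rl1 has 2 listed starts, a distal one known to be used in haematopoietic cells such as mast cells and a proximal one known from fibroblasts, and the 3′ counts do not separate them. They also do not separate the membrane receptor from the soluble form. AGATAA began 217 bases before the distal start and, on the minus strand as TTATCT, 103 bases before the proximal start. It began 81 bases before the start of Il13. The STAT6 spacing began 36 bases before the first of the 2 listed starts of Il33 and 145 before the start of Retnla, and the window of the second Il33 start held no match. Il4 had one 167 bases before 1 of its 2 starts.

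Il33 (ENSMUSG00000024810, chr19:29925114-29960718, plus strand) was lower after cold in its main source, fibroblasts and adipose progenitors, where it stood at 53.3 and 65.5 CPM in the cold libraries and at 100.2 and 139 CPM in the room-temperature libraries. Both cold libraries lay below both room-temperature libraries. These levels rested on 323 and 235 UMIs in cold, against 1201 and 538 at room temperature. The log2 change was -0.96 (SE 0.17, edgeR's quasi-likelihood test, adjusted p = 0.0447). It was the only one of the 7 members tested in fibroblasts that passed, where 2.94% of 11587 genes did. The median change of the 7, -0.64 against 0.00 for all genes, was that of Retnla, there at no more than 0.627% of the macrophage mean. Of the 7 members 5 were lower in cold without overlap, as were 29.5% of all genes. The call was lost without cold replicate 1 (adjusted p = 0.319) and without cold replicate 2 (adjusted p = 0.0913).

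A smaller share of fibroblasts held an Il33 UMI after cold when each cell was thinned to 2000 UMIs, which left out 55 and 36 shallower cells in cold and 63 and 19 in the room-temperature libraries. The shares were 10.2% (95% Clopper-Pearson interval 8.04 to 12.8) and 10.3% (7.57 to 13.6) in cold, against 17.2% (15.1 to 19.3) and 16.6% (12.8 to 21.1) at room temperature. These intervals cover counting error only. In T cells, a class that should lack Il33, the thinned shares were 0% and 0.295% in cold and 0.295% and 0% at room temperature, so the fibroblast shares lay far above free RNA. Fibroblasts had median depths of 8929 and 8163.5 UMIs in cold, against 9500.5 and 11450 at room temperature.

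The fibroblast clusters differed in Il33 and in their mix between groups. The Pi16-led cluster, whose leading gene marks adventitial progenitors, had 70.4 and 73.6 CPM of Il33 in cold and 164 and 231 CPM at room temperature. It formed 11.1% and 23.7% of cold fibroblasts, against 43.2% and 54.9% of room-temperature fibroblasts. Within it alone the log2 change was -1.48 (edgeR, adjusted p = 0.0478). The Cxcl13-led cluster formed 61.3% and 48.9% of cold fibroblasts and had 53.3 and 74.6 CPM of Il33 there, whereas it held 5.40% and 1.14% of room-temperature fibroblasts. An Apod-led cluster had 55.6 and 89.2 CPM in cold and 90.1 and 126 CPM at room temperature. In the Sfrp2-led cluster the groups overlapped, with 102 and 57.6 CPM in cold and 93.6 and 46.4 CPM at room temperature. A Col3a1- and Postn-led cluster was low in every library, with 1.83 and 2.60 CPM in cold and 7.32 and 12.3 CPM at room temperature. The summed stress list in fibroblasts stood at 28617 and 23143 CPM in cold and at 16094 and 11968 CPM at room temperature, with 6 of 20 genes risen. Summed macrophage markers in fibroblasts stood at 65.6 and 68.0 CPM in cold, against 165 and 190 CPM at room temperature. Macrophages themselves had a mean of 0.677 CPM of Il33, and at most 1.79 CPM in a library. The part of stress and of macrophage RNA in the Il33 difference was not tested.

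**Figure D2:**
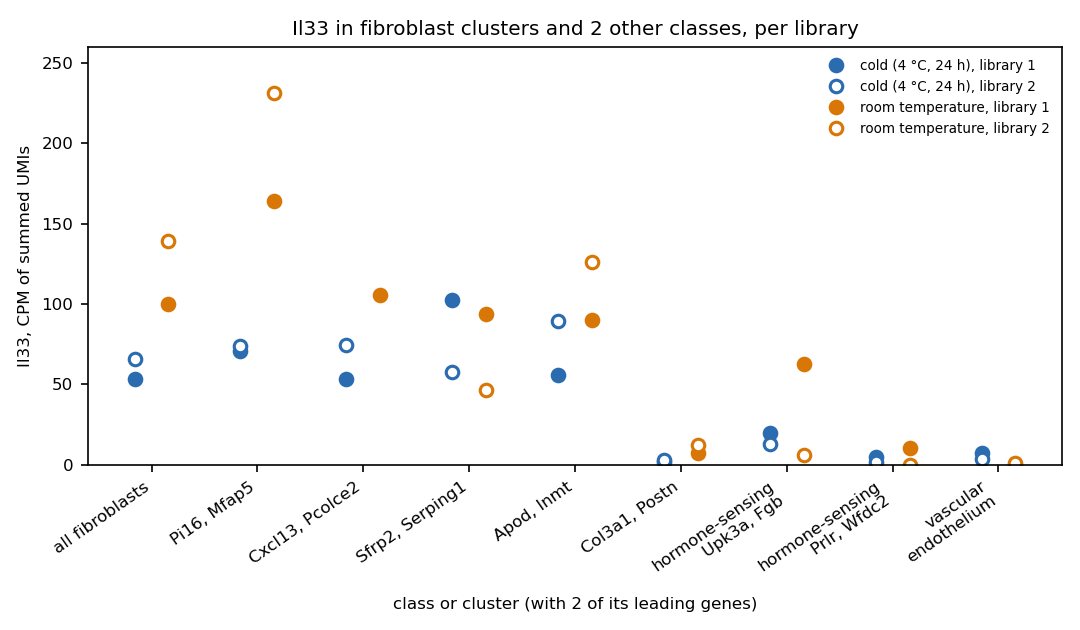
Il33 in CPM of summed UMIs per library, cold in blue left of room temperature in orange, filled points for library 1 and open points for library 2, in cell classes and in fibroblast clusters (clusters with under 10 cells in a library have no point there). In fibroblasts both cold libraries (53.3 and 65.5) lie below both room-temperature libraries (100.2 and 139), as they do in the Pi16-led cluster, while the Sfrp2-led cluster overlaps between groups.

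Other sources of Il33 were smaller. Fibroblasts held 67.1% of its UMIs, hormone-sensing luminal cells 14.1% and mixed clusters 16.9%. In hormone-sensing luminal cells, which carry the oestrogen and progesterone receptors, Il33 stood at 6.01 and 3.99 CPM in cold and at 45.6 and 1.37 CPM at room temperature. One room-temperature library, the first, was far above the other 3 and the groups overlapped. An Upk3a- and Fgb-led cluster formed 66.0% of its hormone-sensing cells. The same cluster formed 5.96% and 17.1% in cold and 17.6% in the second room-temperature library. The part of this mix in the Il33 levels was not tested. The log2 change of -2.40 (edgeR, adjusted p = 0.593; 0.00822% of genes called) turned to 1.98 without room-temperature replicate 1. Lymphatic endothelium ranked second by mean level, but on 1 and 2 UMIs in 5 and 4 cold cells and 5 UMIs in 9 cells of the first room-temperature library. Vascular endothelium, a strong Il33 source in many human tissues, had 6 and 2 UMIs in cold and 0 and 1 at room temperature, at most 6.90 CPM. Il33 was too low there to be tested.

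Tslp (ENSMUSG00000024379) was counted chiefly in macrophages and monocytes, which held 73.4% of its UMIs, with fibroblasts at 14.2%. Epithelial cells and fibroblasts are its better known sources. In macrophages it stood at 48.8 and 42.6 CPM in cold and at 115 and 49.3 CPM at room temperature. The room-temperature libraries were both higher, one of them only slightly. The log2 change was -0.87 (SE 0.37, edgeR, adjusted p = 0.392). None of the 7 members tested in macrophages passed, against 0.555% of 11000 genes; 1 had an unadjusted p under 0.05, and DESeq2 also called none. Without room-temperature replicate 1 the change was -0.09 and without room-temperature replicate 2 it was -1.34.

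The macrophage Tslp sat in cells led by C1qa, a complement gene of resident macrophages. The larger C1qa-led cluster, in which 43.7% of cells held a Tslp UMI, stood at 70.2 and 64.3 CPM in cold and at 162 and 118 CPM at room temperature. Within that cluster alone the log2 change was -1.08 (edgeR, adjusted p = 0.00606). The Lyz1- and Ear2-led cluster of the same class held almost none, with 1.04 and 4.31 CPM in cold and 3.45 and 1.33 CPM at room temperature. Thinned shares of macrophages with a Tslp UMI were 9.83% and 8.92% in cold and 20.3% and 10.4% at room temperature, against at most 0.244% of T cells in any library. Fibroblast Tslp stood at 11.4 and 11.4 CPM in cold and at 13.6 and 14.5 CPM at room temperature (log2 change -0.25, edgeR, adjusted p = 0.466).

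Il1rl1 (ENSMUSG00000026069, chr1:40429570-40465415, plus strand) marked a short list of receivers. The 14 mast cells led with 1759 CPM in the first cold library, from 3 cells, and 1789 and 871 CPM at room temperature, from 8 and 3 cells. The second cold library had no mast cell. Of the 14 cells, 13 held a UMI. The 47 group 2 innate lymphoid cells followed, with 581 and 808 CPM in cold and 552 and 481 CPM at room temperature. The ranges of these 2 classes did not overlap. Regulatory T cells and dendritic cells came next with means of 74.3 and 73.8 CPM, whose ranges overlapped, then macrophages with 29.8 CPM and other T cells with 4.67 CPM. Because macrophages were numerous they held 41.5% of all Il1rl1 UMIs, against 12.6% for dendritic cells, 8.20% for regulatory T cells, 7.07% for group 2 innate lymphoid cells and 4.04% for mast cells.

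Regulatory T cells, which restrain inflammation and whose ST2-positive subset is prominent in fat, had less Il1rl1 after cold. Of the 364 cells so named, Ikzf2 was in 291, Ctla4 in 278, Tnfrsf4 in 255 and Tnfrsf18 in 228. Foxp3 was in 138, Il2ra in 121 and Cd4 in 184. Il1rl1 in regulatory T cells stood at 35.7 and 40.9 CPM in cold and at 99.5 and 121 CPM at room temperature. These levels came from 16 and 19 UMIs against 26 and 69. The groups did not overlap. Of the 5 members tested in these cells 2 passed, Il1rl1 and Retnla, where 1.23% of 5355 genes did. Retnla was there at no more than 1.40% of the macrophage mean. The log2 change of Il1rl1 was -1.51 (SE 0.29, edgeR, adjusted p = 0.0026). The call was lost with DESeq2 (adjusted p = 0.392) and without room-temperature replicate 2 (-1.33, adjusted p = 0.0749). A cluster led by Tnfrsf4 with Icos and Ikzf2 carried nearly all of it, with 274 and 217 CPM in cold and 766 and 425 CPM at room temperature, in 12 and 22 cold cells and 14 and 36 room-temperature cells. It held 12 and 18 of the UMIs in cold and 26 and 62 of those at room temperature. That cluster formed 12.9% and 22.9% of cold regulatory T cells and 19.2% and 35.3% of those at room temperature. The other cluster, led by Tnfrsf4 with Izumo1r, had 9.88 and 2.62 CPM in cold and 0 and 16.5 CPM at room temperature.

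Thinned shares of regulatory T cells with an Il1rl1 UMI were 4.60% and 5.88% in cold, against 9.68% and 17.3% at room temperature. Their counting intervals overlapped. B cells, which should lack the receptor, had at most 0.909% in any library. The stress list in regulatory T cells stood at 12469 and 11577 CPM in cold and at 10264 and 8339 CPM at room temperature, with 7 of 19 genes risen. Summed mast cell markers there stood at 6.69 and 15.1 CPM in cold and at 26.8 and 8.79 CPM at room temperature. In mast cells these markers stood at 108441 CPM in the first cold library and at 154644 and 76839 CPM at room temperature. The part of stress and of mast cell RNA in the Il1rl1 difference was not tested. Gata3, which this subset also carries, stood at 84.7 and 118 CPM in cold and at 157 and 148 CPM at room temperature. Its log2 change was -0.53 (edgeR, adjusted p = 0.390), short of the threshold although the groups did not overlap.

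**Figure D3:**
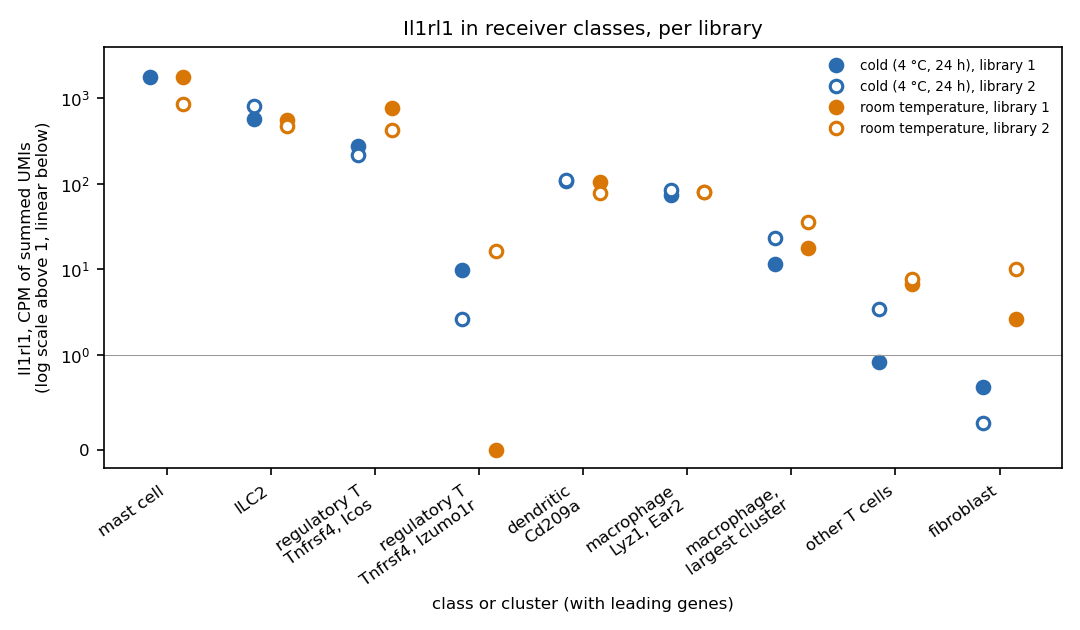
Il1rl1 in CPM of summed UMIs per library (axis linear below 1 and log above), cold in blue left of room temperature in orange, filled points for library 1 and open points for library 2, in cell classes and clusters. Mast cells (3, 0, 8 and 3 cells) and group 2 innate lymphoid cells (ILC2) lie highest, and the Icos-led regulatory T cell cluster is lower in both cold libraries (274 and 217) than in both room-temperature libraries (766 and 425).

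In the remaining receivers Il1rl1 gave no call. Macrophages stood at 24.8 and 31.7 CPM in cold and at 28.5 and 33.9 CPM at room temperature (log2 change -0.16, edgeR, adjusted p = 0.775), and the groups overlapped. Within macrophages the Lyz1- and Ear2-led cluster held most of the receptor, with 74.0 and 84.1 CPM in cold and 79.3 and 79.5 CPM at room temperature, and 37.3% of its cells had a UMI. The Cd209a-led dendritic cells stood at 109 and 110 CPM in cold and at 104 and 78.5 CPM at room temperature. Other T cells had 0.917 and 3.42 CPM in cold and 6.68 and 7.67 CPM at room temperature, a log2 change of -1.96 that missed the threshold (edgeR, adjusted p = 0.0852). Fibroblasts had 0.660 and 0.279 CPM in cold and 2.59 and 10.1 CPM at room temperature (log2 change -3.40, edgeR, adjusted p = 0.110; DESeq2 adjusted p = 0.0238). Both of these levels were under 5% of the mast cell mean. Single room-temperature cells held up to 7 UMIs among T cells and up to 8 among fibroblasts.

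The group 2 innate lymphoid cells were few, with 17 and 13 cells in cold and 10 and 7 at room temperature, at a median depth of 3716 UMIs. They were named from markers: Rora in 40, Il7r in 39, Il2ra in 35 and Arg1 in 31 of the 47 cells. Areg was in 29 and Klrg1 in 28, whereas Icos was in 8, Il17rb and Calca were in 1 each and Nmur1 was in 0. Of T cell genes, Cd3e was in 1, Foxp3 in 0 and Trbc2 in 34. They formed 0.433% and 0.438% of cold cells and 0.191% and 0.228% of room-temperature cells. The share was higher in both cold libraries, but the log2 change of 1.06 did not pass (edgeR on cell numbers, adjusted p = 0.173). Il1rl1 was found in 37 of the cells, Gata3 in 41 and both in 32. Il1rap, the chain ST2 needs to signal, had 0 UMIs in 47 cells, which allows a share of cells with a UMI of up to 6.38%. In the other receivers it was also sparse, in 3.30% of regulatory T cells, 3.50% of dendritic cells and 5.42% of macrophages. Mast cells held 1 UMI of it, in 7.14% of their cells.

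Il5 (ENSMUSG00000036117, chr11:53720794-53725106, plus strand), the growth factor of eosinophils, was nearly confined to these cells, with 50 of its 62 UMIs. They came from 12 cells, 1 of 17 and 2 of 13 in the cold libraries and 5 of 10 and 4 of 7 in the room-temperature libraries. Their UMIs numbered 3 and 6 in cold, against 36 and 5 at room temperature. The first room-temperature library stood apart in UMIs, and its top cell alone held 14. The mean level in group 2 innate lymphoid cells was 348 CPM, and no other class exceeded a mean of 1.29 CPM. These cells were too few to be tested, and Il5 was too low for a test in the 11 tested classes.

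Il13 (ENSMUSG00000020383, chr11:53631324-53634702, minus strand), which acts with Il4 on Il4ra, had 60 of its 108 UMIs in mast cells, 21 in group 2 innate lymphoid cells and 15 in T cells. Its mean level was 1106 CPM in mast cells and 163 CPM in group 2 innate lymphoid cells, with overlapping ranges. In mast cells, 8 of 14 held it, with 7 UMIs in the first cold library, against 51 and 2 in the room-temperature libraries. In group 2 innate lymphoid cells it came from 5 cells, of which 4 also held Il5, with 3 and 2 UMIs in cold and 3 and 13 at room temperature. Of the 15 UMIs in T cells, 14 came from 2 cells of the second cold library. The mast cells held no Gata3 and no Il5 UMI in 14 cells, which allows a share of up to 21.4%, whereas Gata2, a factor of the mast cell lineage, was in 11 of them.

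Il4 (ENSMUSG00000000869, chr11:53602982-53618669, minus strand), the signature cytokine of type 2 helper T cells, lies in the same locus as Il5 and Il13. It had 11 UMIs in 8 mast cells and none in the 47 group 2 innate lymphoid cells (a share of up to 6.38%). Most of its 107 UMIs, 79, fell in macrophages, with 15 and 6 in cold and 50 and 8 at room temperature and never more than 2 per cell. By level the order was the reverse, with a mean of 242 CPM in mast cells and 3.09 CPM in macrophages. Between 0.810% and 3.15% of macrophages in a library held one, against 0% of hormone-sensing luminal cells, which were sequenced more deeply. The highest macrophage library stood at 2.17% of the mast cell mean. B cells, natural killer cells, dendritic cells and vascular endothelium held no Il4 UMI. Fibroblasts reached at most 0.0834 CPM in a library, other T cells 0.557 CPM and regulatory T cells 2.23 CPM. At so low a level the macrophage UMIs are not read as macrophage expression, and the part of free RNA in them was not tested. The cell with the most Il4, 8 UMIs, lay in a mixed cluster of the second room-temperature library, which had 18 UMIs. In the whole fraction Il4 stood at 0.398 and 0.229 CPM in cold and at 1.23 and 0.545 CPM at room temperature, and Il13 at 0.231 and 0.544 CPM in cold and at 1.21 and 0.515 CPM at room temperature. Both rest on very few UMIs.

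**Figure D4:**
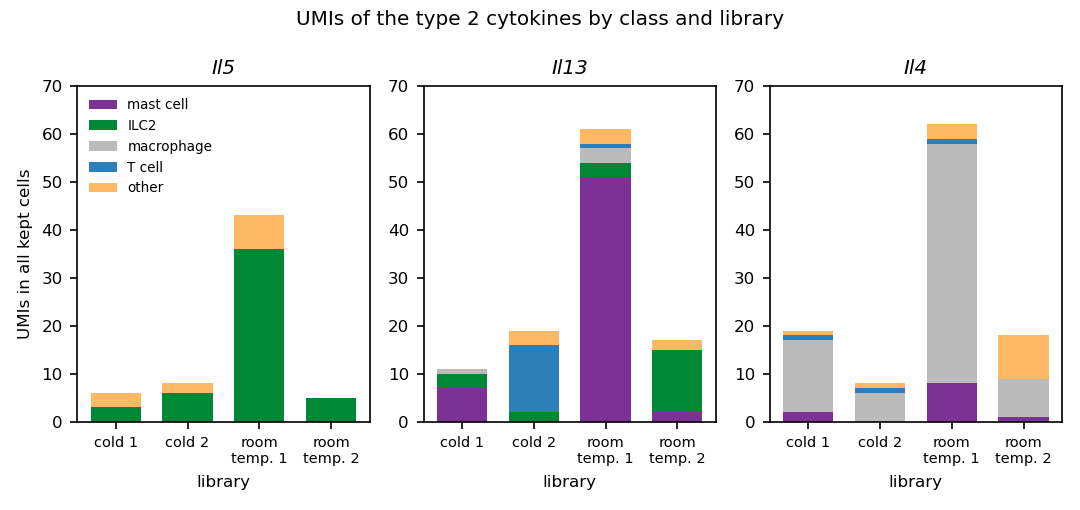
UMIs of Il4, Il5 and Il13 by cell class (ILC2, group 2 innate lymphoid cells) in each library, stacked over all kept cells, with the cold libraries left of the room-temperature libraries. The largest blocks are Il5 in group 2 innate lymphoid cells (36 of 62 UMIs) and Il13 in mast cells (51 of 108) of the first room-temperature library, and Il4 in macrophages (79 of 107 over all libraries).

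Crlf2 (ENSMUSG00000033467, chr5:109554709-109558993, minus strand), the Tslp receptor chain, was broad among leukocytes. Its means were 160 CPM in neutrophils, 158 CPM in mast cells, 145 CPM in dendritic cells, 140 CPM in macrophages and 112 CPM in regulatory T cells, and neighbours in this order overlapped. The mast cell mean rested on 4 UMIs in 2 of 14 cells, with libraries from 0 to 327 CPM. The neutrophils were 95 cells at a median depth of 1604 UMIs. Macrophages stood at 167 and 134 CPM in cold and at 135 and 125 CPM at room temperature. The groups overlapped and the log2 change was 0.21 (edgeR, adjusted p = 0.619). It was present in 12 of the 47 group 2 innate lymphoid cells.

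Gata3 (ENSMUSG00000015619, chr2:9857078-9890034, minus strand) was counted mainly in epithelium, and clusters with mixed names held 47.9% of its UMIs. A Prlr- and Krt18-led cluster of 409 cells, at a median of 47404 UMIs per cell, held 27.9% of them. Among named classes, group 2 innate lymphoid cells stood at 688 and 789 CPM in cold and at 1510 and 888 CPM at room temperature, and hormone-sensing luminal cells at 609 and 758 CPM in cold and at 789 and 833 CPM at room temperature. The change in hormone-sensing cells was -0.22 (log2, edgeR, adjusted p = 0.712). Luminal alveolar progenitors, milk-lineage cells, stood at 381 and 365 CPM in cold and at 256 and 335 CPM at room temperature, a log2 change of 0.22 that did not pass (edgeR, adjusted p = 0.759; 2.8% of genes called).

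Il4ra (ENSMUSG00000030748, chr7:125552120-125579474, plus strand), the shared receptor chain of Il4 and Il13, fell in T cells. It stood at 65.3 and 63.8 CPM in cold and at 103 and 111 CPM at room temperature. The groups were well apart and the libraries within each were close. The log2 change was -0.83 (SE 0.13, edgeR, adjusted p = 0.0097), and 1 of the 5 members tested passed, where 3% of 9587 genes did. With each library left out the change stayed between -0.92 and -0.74 and passed. The median change of the 5 members, -0.83 against 0.01 for all genes, was Il4ra's own and adds nothing to it. Il1rl1, Gata3 and Retnla were each at under 5% of their highest class mean in T cells.

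The T cell clusters also changed in mix. A cluster led by Cd8b1 and Dapl1 formed 46.8% and 10.3% of cold T cells and 7.69% and 2.56% of room-temperature T cells, and one led by Ccl5 and Ly6c2 formed 1.38% and 4.49% in cold and 21.7% and 28.2% at room temperature. Within the Trbc1- and Dapl1-led cluster Il4ra stood at 98.8 and 63.7 CPM in cold and at 169 and 149 CPM at room temperature, and within the Cd8b1-led cluster at 72.5 and 72.9 CPM in cold and at 83.9 and 92.4 CPM at room temperature. In these 2 clusters both cold libraries were lower, as in no other of the 10 clusters with cells in every library. The groups overlapped in the remaining 8, among them the Ccl5- and Ly6c2-led cluster just named, with 100.3 and 166 CPM in cold and 140 and 144 CPM at room temperature, and a Gm2682- and Ms4a4b-led cluster, with 136 and 181 CPM in cold and 86.5 and 172 CPM at room temperature. The lower level held for the T cells as a whole and is not shown for each cluster. Thinned shares of T cells with an Il4ra UMI were 15.8% and 12.7% in cold and 17.1% and 20.9% at room temperature, against 0.405% to 3.33% of hormone-sensing luminal cells. The stress list in T cells stood at 8288 and 6505 CPM in cold and at 6465 and 5925 CPM at room temperature, with 4 of 20 genes risen, and its part in the Il4ra difference was not tested.

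In other classes Il4ra moved in differing directions without passing. Fibroblasts stood at 43.4 and 48.5 CPM in cold and at 67.5 and 204 CPM at room temperature (log2 change -1.47, edgeR, adjusted p = 0.153), and the second room-temperature library was far above the rest. Without room-temperature replicate 2 that change was -0.55, and without room-temperature replicate 1 it was -2.07 (adjusted p = 0.0019). Vascular endothelium stood at 113 and 86.1 CPM in cold and at 66.2 and 63.0 CPM at room temperature (log2 change 0.67, edgeR, adjusted p = 0.142; 0.901% of genes called). The cold effect differed between fibroblasts and vascular endothelium by -2.06 on the log2 scale (SE 0.35, edgeR interaction, adjusted p = 0.0029; 1.07% of 11759 genes called), and the difference missed the threshold without cold replicate 1 (-1.77, adjusted p = 0.221). It was -2.73 on dropping the first room-temperature library and -1.17 on dropping the second. Macrophages stood at 58.5 and 67.1 CPM in cold and at 46.1 and 56.5 CPM at room temperature (log2 change 0.28, edgeR, adjusted p = 0.515).

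**Figure D5:**
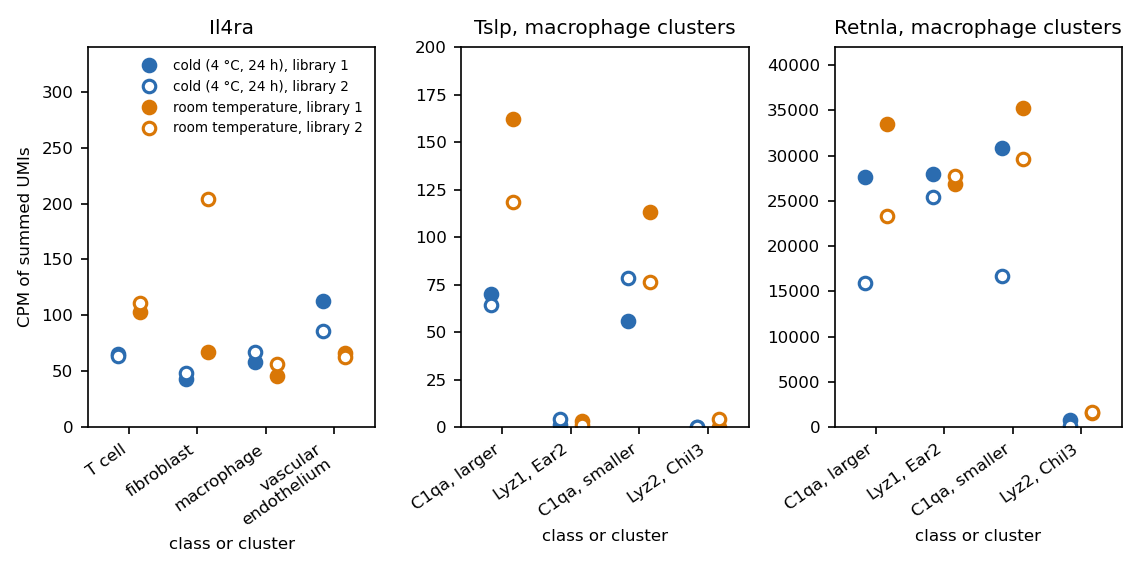
CPM of summed UMIs per library of Il4ra in 4 cell classes and of Tslp and Retnla in macrophage clusters named by their leading genes, cold in blue left of room temperature in orange, filled points for library 1 and open points for library 2. Il4ra is lower in both cold libraries of T cells (65.3 and 63.8) than in both room-temperature libraries (103 and 111), and Tslp lies almost wholly in the C1qa-led clusters.

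Retnla (ENSMUSG00000061100, chr16:48842551-48844461, plus strand) encodes a secreted resistin-like protein induced through STAT6. In macrophages it stood at 25805 and 15232 CPM in cold and at 30109 and 22017 CPM at room temperature. The groups overlapped and the log2 change of -0.36 (SE 0.28, edgeR, adjusted p = 0.666) did not pass. The larger C1qa-led cluster stood at 27637 and 15919 CPM in cold and at 33495 and 23282 CPM at room temperature. The Lyz1- and Ear2-led cluster, the one rich in Il1rl1, stood at 27958 and 25424 CPM in cold and at 26857 and 27770 CPM at room temperature, whereas a Lyz2- and Chil3-led cluster stood at 834 and 147 CPM in cold and at 1555 and 1618 CPM at room temperature. Thinned shares of macrophages with a UMI were 89.4% and 72.0% in cold and 91.5% and 82.6% at room temperature.

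Retnla UMIs also appeared in lymphocytes. Thinned shares of T cells with one were 14.2% and 3.83% in cold and 31.6% and 17.5% at room temperature. Natural killer cells stood at 76.5 and 24.4 CPM in cold and at 203 and 249 CPM at room temperature (log2 change -2.36, edgeR, adjusted p = 0.000676; 1.65% of 4610 genes called), and regulatory T cells at 84.7 and 32.3 CPM in cold and at 325 and 104 CPM at room temperature (-1.67, adjusted p = 0.0153). The call in regulatory T cells was lost without cold replicate 2 (-1.09, adjusted p = 0.0637) and without room-temperature replicate 1 (-0.79, adjusted p = 0.192), and also with DESeq2 (adjusted p = 0.999), the looser cell filter (0.221), resolution 2 (0.182) and the largest cluster alone (0.224). In natural killer cells the change ran from -3.24 without cold replicate 1 to -1.55 without cold replicate 2. These levels were at most 1.40% of the macrophage mean. Summed macrophage markers in natural killer cells stood at 655 and 366 CPM in cold and at 801 and 405 CPM at room temperature, and those in regulatory T cells at 127 and 55.9 CPM in cold and at 153 and 65.0 CPM at room temperature. At so low a level the 2 calls are not read as lymphocyte expression, and the part of free macrophage RNA in them was not tested.

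Over the whole fraction, where fewer cells of a type and less RNA per cell cannot be told apart, members pointed mostly down in cold. Il33 stood at 10.9 and 8.91 CPM in cold and at 40.2 and 17.0 CPM at room temperature, Tslp at 7.72 and 5.19 CPM in cold and at 26.2 and 13.7 CPM at room temperature. Il1rl1 stood at 6.04 and 6.76 CPM in cold and at 11.03 and 15.3 CPM at room temperature. Retnla stood at 2749 and 1537 CPM in cold and at 5916 and 4281 CPM at room temperature. In each of these 4 both cold libraries lay below both room-temperature libraries, with log2 changes of -1.54 for Il33, -1.63 for Tslp, -1.04 for Il1rl1 and -1.25 for Retnla (edgeR, adjusted p = 0.172, 0.144, 0.111 and 0.164). Left-out libraries moved Il33 between -2.05 on dropping the second room-temperature library and -0.74 on dropping the first, Tslp between -2.05 and -1.04 and Retnla between -1.77 and -0.86. Gata3 was the exception, with 329 and 381 CPM in cold and 270 and 263 CPM at room temperature. Of the 9 members tested, 7 were lower and 1 higher in cold without overlap, against 29% and 28.5% of all 16035 genes. None passed edgeR's test, as no gene did (0% called), although 7 had an unadjusted p under 0.05, as did 3727 genes. DESeq2 called 4 of the 9, Il33, Il1rl1, Tslp and Retnla, among 1244 genes.

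Across the 11 classes tested, 46 tests of 8 members gave 5 calls, all lower in cold: Il33 in fibroblasts, Il4ra in T cells, Il1rl1 and Retnla in regulatory T cells and Retnla in natural killer cells. The 2 Retnla calls are those at under 5% of the macrophage level. The share was set beside 1.26% of the 85873 tests over all genes, 0.706% being lower in cold. Of the 46 changes 34 were negative, while the median change over all genes lay between -0.02 and 0.02 in each class. An unadjusted p under 0.05 was found for 18 of the 46. The share over all genes ran from 395 of 7604 in B cells to 2254 of 11587 in fibroblasts. Every Retnla test outside macrophages and dendritic cells was negative and at under 5% of the macrophage mean.

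Other genes of the pathway, from lists chosen with earlier results of these data known, gave calls chiefly in T cells and macrophages. The T cell class changed in its mix of clusters, as given above. Its largest clusters, of 490 and 423 cells, had Cd8b1 among their leading genes. The part of this mix in the T cell calls that follow was not tested. Of 14 tested receptor and signalling genes in T cells, where 3% of all genes were called, 1 rose and 2 fell. Il7r, which pairs with Crlf2 and binds Il7, rose to 615 and 523 CPM in cold, against 360 and 271 CPM at room temperature (log2 change 0.76, edgeR, adjusted p = 0.0278), and was lost without room-temperature replicate 2. Stat5a, a transducer of Il2 and Il7 signals, fell to 28.1 and 32.8 CPM in cold, against 60.7 and 57.3 CPM at room temperature (-1.06, adjusted p = 0.00514). Stat5b fell by 0.64 (edgeR, adjusted p = 0.0408) and was lost without either room-temperature library. Of 7 tested genes of type 2 lymphocytes, 3 fell in T cells: the costimulator Icos, with 141 and 134 CPM in cold and 230 and 206 CPM at room temperature; Rora, a transcription factor (log2 change -1.06, adjusted p = 0.0193); and the lectin receptor Klrg1, at 0 and 0.854 CPM in cold and 5.57 and 14.6 CPM at room temperature. Rora was lost without room-temperature replicate 2. In macrophages, where 0.555% of all genes were called, 3 of 7 genes on that list fell, the cytokines Il10 and Il6 and the growth factor Areg. Il10 stood at 3.30 and 8.04 CPM in cold and at 40.4 and 54.7 CPM at room temperature, and each of the 3 calls was lost without either cold library.

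Of 17 tested alternative-activation genes in macrophages, none passed edgeR's test (6 had an unadjusted p under 0.05, and DESeq2 called 2, Irf4 and Tfrc, both lower in cold), with a median log2 change of -0.03, against 0.00 for all genes. In fibroblasts Ccl11, an eosinophil attractant, rose to 701 and 639 CPM in cold, against 422 and 389 CPM at room temperature (log2 change 0.77, edgeR, adjusted p = 0.0460), and was lost when any 1 library was left out. By likeness of level across the 17 classes (Pearson's r of log2 CPM, a description), the genes most like Il33 were Ackr2 (0.877), Cthrc1 (0.876), Amy1 (0.861), Edn1 (0.858) and Vegfd (0.853). Those most like Il1rl1 were Nfkb1 (0.873), Il9r (0.849), Tspoap1 (0.842), Mb21d1 (0.835) and Tiam1 (0.823), and those most like Retnla were F13a1 (0.957), Ms4a8a (0.951), Ms4a7 (0.935), Lyz2 (0.926) and Tbxas1 (0.917).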

How the data were processed

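Single-cell libraries were made from the stromal vascular fraction of inguinal fat, 2 from cold and 2 from room-temperature mice, and the authors deposited 1 matrix of raw UMI counts per library. The submitters' processing notes name Cell Ranger 3.0.2, Seurat and the mm10 and GRCm38 builds; the notes give no role to each. Per-library depth ran from 35198164 to 55160902 UMIs. Cells with at least 500 genes and at most 15% mitochondrial UMIs were kept, doublets were scored and removed at 0.8% per 1000 cells (132 and 74 from the cold libraries, 239 and 79 from the room-temperature libraries), and cells were clustered on 2000 variable genes, 30 components and 15 neighbours (Leiden resolution 1; igraph 0.11.9, leidenalg 0.10.2, scikit-learn 1.9.0, Python 3.11.15). A cluster took a name from at least 3 of its marker genes, each in at least 10% of cells and at least 1 log2 unit above the median cluster; those naming thresholds were set with the data at hand. Regulatory T cells were split from T cells and tested apart.

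Counts were summed per library and class, in the 11 classes with at least 20 cells in every library, and tested with edgeR 4.0.16 (quasi-likelihood, filterByExpr, TMM) in R 4.3.3; p-values were Benjamini-Hochberg adjusted over all genes tested in a class, with a threshold of 0.05. Exact permutation of 2 against 2 libraries cannot go below p = 0.333. DESeq2 1.42.0 was an alternative. The closing section gives that and the other alternatives: other scaling, no low-count filter, a replicate block, each library left out, doublets kept, looser cell filter, resolution 2, thinning to 1000 UMIs and the largest cluster of a class alone. The edgeR test per class was tried on counts simulated from the fibroblast class. The interaction test and the test of cell shares were not tried on simulated data. The 10 members are named called or not; of each pathway list, genes past the threshold are named, at most 4 per direction and class; for Il33, Il1rl1 and Retnla the 5 genes most alike are named. The members and lists were chosen with earlier results of these data known.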

Additional observations from a re-analysis of the deposited data

Results flagged for a closer look

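The cold effect on Il4ra differed between fibroblasts and vascular endothelium by -2.06 on the log2 scale (edgeR interaction, adjusted p = 0.0029): the gene was lower in cold in fibroblasts and higher in endothelium, neither change passing on its own. In fibroblasts the difference leans on the second room-temperature library, at 204 CPM against 67.5 CPM in the first. What sets the difference was not tested.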

How the results depend on the processing

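Of 352 recomputed member changes over 13 settings, 310 kept direction and side of the threshold, 13 lost the call, 26 gained it and 3 turned: Il33 in hormone-sensing cells without room-temperature replicate 1 (1.98; range with 1 library left out -3.22 to 1.98), and Il1rl1 in macrophages without cold replicate 1 (0.023; range -0.33 to 0.023) and at resolution 2 (0.032). In fibroblasts 341 were called, 1512 without the low-count filter, 25 in the largest cluster and 2 to 520 with 1 library left out (2 and 101 on dropping the first and the second cold library, 520 on dropping the first room-temperature library). In T cells 288 became 732 without the filter, 143 with DESeq2 and 219 to 726 with 1 library left out (726 and 498 without cold replicate 1 and 2). In regulatory T cells 66 became 5 with DESeq2, 27 with the looser cell filter, 29 at resolution 2, 26 in the largest cluster and 43 to 114 (114 without cold replicate 2, 103 and 43 without room-temperature replicate 1 and 2). In natural killer cells 76 became 144 without the filter, 23 with DESeq2, 50 with doublets kept, 142 at resolution 2 and 60 to 120 (119 and 120 without replicate 1 of cold or room temperature). In macrophages 61 became 668 without the filter, 164 with DESeq2, 12 at resolution 2, 283 in the largest cluster and 1 to 800 (1 and 2 without cold replicate 1 and 2, 800 and 544 without room-temperature replicate 1 and 2). In the whole fraction 0 became 457 without the filter and 1244 with DESeq2. The sum over classes of 1084 became 4123 without the filter and 998 to 2970 (2970 and 2038 without room-temperature replicate 1 and 2), and the interaction count of 126 became 269 and 48 to 306 (48 and 55 without cold replicate 1 and 2, 306 without room-temperature replicate 1). The causes were not tested.

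The labels give the samples a shared replicate number and do not say whether it marks a pair, and 2 pairs are too few to decide. Correlations of deviations between same-numbered libraries ran from -0.16 (luminal alveolar progenitors) to 0.43 (dendritic cells) over the classes, with 0.21 in macrophages. With a replicate block 571 genes were called in fibroblasts, 1231 in T cells, 0 in regulatory T cells, 200 in natural killer cells, 586 in macrophages and 3018 in all, Il1rl1 in regulatory T cells had adjusted p = 0.135 (edgeR) and Il1rl1 in other T cells and Tslp in macrophages passed, while Retnla in regulatory T cells did not (adjusted p = 0.052). A crossed pairing, chosen after seeing the data, called 30 genes in B cells and 326 in luminal alveolar progenitors.

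Depth limits shares of cells with a UMI. Thinned to 1000 UMIs and unthinned, the mean shares were 4.56% and 24.2% in cold and 10.4% and 39.7% at room temperature for Il33 in fibroblasts, 4.84% and 24.8% in cold and 29.98% unthinned at room temperature for Tslp in macrophages, 8.65% and 33.7% in cold and 10.04% and 46.5% at room temperature for Il4ra in T cells, and 3.21% and 8.43% in cold and 7.84% at 1000 UMIs at room temperature for Il1rl1 in regulatory T cells.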

Other observations

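Beyond the members, Il7r rose in natural killer cells, to 253 and 423 CPM in cold, against 130 and 130 CPM at room temperature (log2 change 1.43, edgeR, adjusted p = 0.00172). In regulatory T cells Rora fell by 0.80 (edgeR, adjusted p = 0.0198) and Klf4 rose by 1.45 (adjusted p = 0.00526). In macrophages Il6 stood at 18.9 and 13.3 CPM in cold, against 93.2 and 73.5 CPM at room temperature, and Areg at 25.5 and 26.5 CPM in cold, against 67.8 and 68.9 CPM at room temperature. Irf4 rose by 1.00 in fibroblasts (edgeR, adjusted p = 0.0231). Several of these calls were lost when 1 library was left out, Irf4 without cold replicate 1, Klf4 without cold replicate 1 or room-temperature replicate 2, and Rora without any but room-temperature replicate 2.

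Stress genes were called in 8 of the 11 classes. Hspa1a and Hspa1b rose in T cells, fibroblasts, natural killer cells and regulatory T cells, with Jun also risen in all 4. Zfp36 rose in T cells, Dnajb1 and Dusp1 in fibroblasts, Dusp1 in natural killer cells and Dnajb1 in regulatory T cells. Vascular endothelium had Atf3, Zfp36, Nfkbia and Socs3 higher in cold, macrophages Hspa1a and dendritic cells Hspa1b, whereas Zfp36 and Nr4a1 fell in luminal alveolar progenitors. In group 2 innate lymphoid cells the summed stress list stood at 51825 and 44226 CPM in cold and at 30922 and 26335 CPM at room temperature; no test was run on so few cells.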
